A study of Mus musculus with 6 samples.

Results

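The negative feedback inhibitors of ERK signalling were examined in endothelial cells cultured from mouse brain. The genes were 9 of the 52636 rows in the deposited count table, chosen by name: the dual-specificity phosphatases Dusp4, Dusp5 and Dusp6, the Sprouty genes Spry1, Spry2 and Spry4, and the Spred genes Spred1, Spred2 and Spred3. Polyadenylated RNA was sequenced from 3 libraries with the genotype Wild Type Control and 3 with an Erg and Fli1 deletion (labelled Fli1/Erg, called knockout here). Cultures of both genotypes had received 4-OHT, the tamoxifen metabolite used to start the deletion, so the controls share this agent. Living cells without CD45 that carried CD31 and VE-cadherin on their surface were sorted before RNA was taken. The labels give neither the Cre driver nor the age of the animals, and they do not say which libraries share an animal or culture, so the p-values below cover the spread among the 6 libraries, which may be partly technical.

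Growth factor receptors such as those for VEGF and FGF act through RAS, RAF and MEK on the kinase ERK, and ERK in turn switches on genes whose products shut the pathway down again. Dusp4, Dusp5 and Dusp6 encode phosphatases that remove the activating phosphates from ERK: the Dusp6 protein works in the cytoplasm, the Dusp5 protein holds ERK in the nucleus, and the Dusp4 protein is nuclear and can also act on other MAP kinases. Sprouty proteins act further upstream, between the receptors and RAF, and Spred proteins bring the RAS inhibitor neurofibromin to the membrane. Because transcripts of several of these phosphatase and Sprouty genes depend on ERK itself, they are widely used as a readout of the pathway. In endothelial cells Sprouty and Spred proteins are known to restrain the response to VEGF, and the ETS family of transcription factors, to which the Erg and Fli1 proteins belong, also includes factors that ERK phosphorylates.

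Libraries held 17274639 to 19410458 counts. Erg, the first targeted gene, had 656, 223 and 610 CPM (counts set against library size with TMM scaling) in controls 1, 2 and 3 and 70.2, 88.3 and 109 CPM in knockouts 1, 2 and 3. Fli1 had 82.9, 64.2 and 92.1 CPM in controls against 57.0, 68.5 and 66.7 CPM in knockouts, and these ranges overlap through control 2. The log2 fold change of Erg was -2.475 (edgeR adjusted p = 0.0137), and -2.86 without control 2. That of Fli1 was -0.32 (edgeR adjusted p = 0.181). Without control 2 it was -0.48 and passed (edgeR adjusted p = 0.00346). Counts cover whole genes, deleted exons included. All 10 endothelial markers were detected and all 10 fell, with a summed level of 6190 to 14600 CPM in controls and 2480 to 3230 CPM in knockouts. The list includes Erg itself. Its most abundant members, Cdh5 and Pecam1, encode the VE-cadherin and CD31 used for the sort. Cdh5 had 4693, 2306 and 4957 CPM in controls and 1299, 1104 and 1406 CPM in knockouts. Pecam1 had 3655, 1389 and 3736 CPM in controls and 219, 239 and 376 CPM in knockouts. Control 2 stood apart: it had the highest level of all controls for 10 of 10 fibroblast markers and 10 of 10 pericyte and smooth muscle markers, and the chi-square of its counts, divided by the degrees of freedom, was 210 against control 1 and 191 against control 3, where those 2 differed from each other by 6.28. Summed fibroblast markers stood at 12400 CPM in control 2, at 409 and 1100 CPM in controls 1 and 3 and at 1640 to 2870 CPM in knockouts, and summed pericyte and smooth muscle markers at 4300, at 476 and 586 and at 782 to 1570 CPM. Fewer cells of a type and less RNA per cell cannot be told apart in such bulk samples.

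The inhibitors did not move as a block. The Sprouty and Spred transcripts of the set were mostly higher in the knockout, whereas Dusp5 and Spred3 were lower. Of the 9 genes, all of which passed the filter on low counts, Spry2, Spry4 and Spred1 rose and Dusp5 and Spred3 fell (edgeR quasi-likelihood test, Benjamini-Hochberg adjusted p under 0.05 over all 13901 genes tested). This gave 5 of 9 called, where 24.7% of all genes tested were; 3 were higher, where 13.1% of all genes were called higher, and 2 lower, where 11.7% were called lower. Without control 2, 8 of 9 were called, 6 higher and 2 lower, where 50.3% of all genes were called, 25.5% higher and 24.8% lower. Scaled by library size only, 7 of 9 were called, 5 higher and 2 lower, where 27.1% of all genes were, 18.0% higher and 9.12% lower. The median log2 fold change was 0.68 over the 9 genes and 0.003038 over all genes tested, and without control 2 these medians were 0.78 and -0.003689. The direction of each of the 9 genes was the same under every scaling tried. In all 9 genes the 3 knockout values lay wholly on one side of the 3 control values, a pattern seen in 46.3% of all genes tested. An exact two-sided permutation test of the CPM values gave p = 0.1 for each of the 9 genes, the smallest that 3 against 3 libraries allow.

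**Figure D1:**
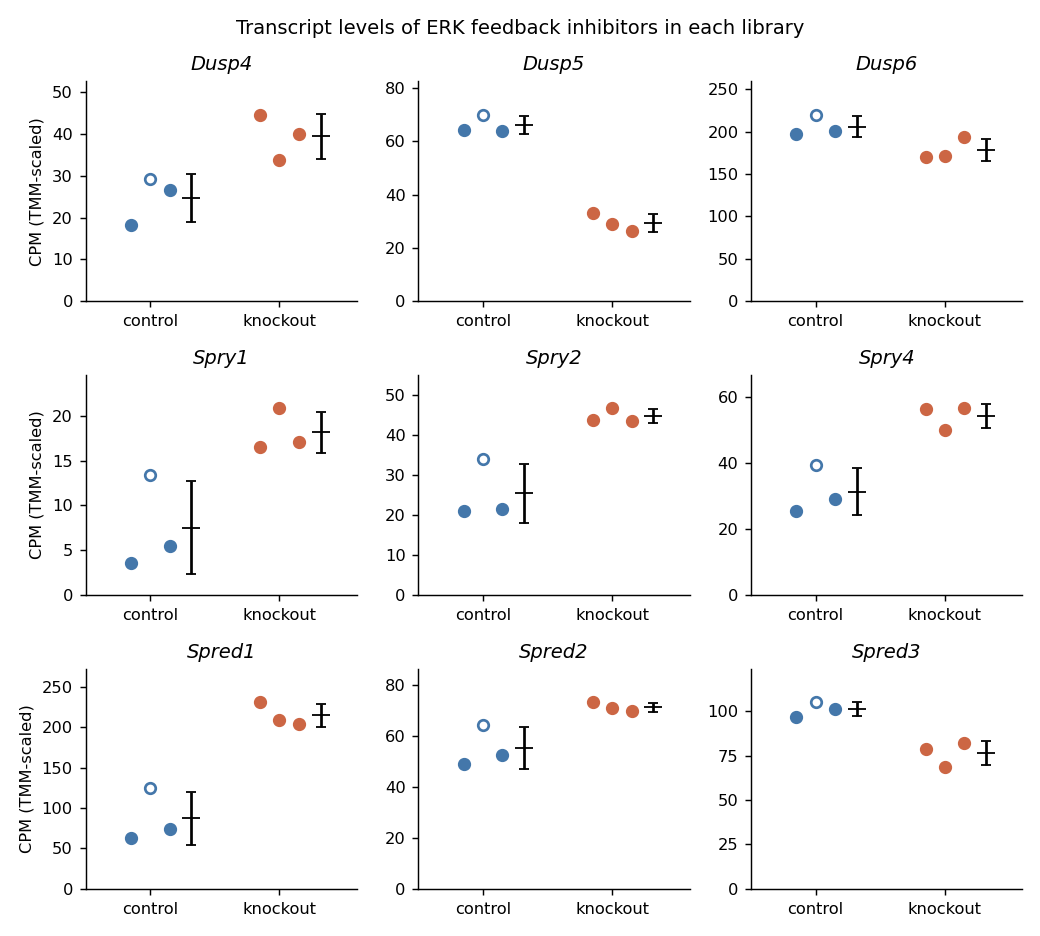
TMM-scaled CPM (vertical axes, from 0) of each of the 9 genes in the 3 control and 3 knockout libraries, numbered 1 to 3 from left to right in each group; bars give the mean and SD, and the open circle is control 2. In all 9 panels the groups do not overlap, and control 2 is the highest control in each.

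Dusp5 showed the firmest change of the set. Dusp5 (ENSMUSG00000034765; GRCm38 chromosome 19, 53529109 to 53542431, plus strand) had 64.2, 69.9 and 63.8 CPM in controls 1, 2 and 3 and 33.1, 28.9 and 26.2 CPM in knockouts 1, 2 and 3. Every knockout library was thus clearly below every control, and control 2 lay close to its group. The log2 fold change was -1.17 (SE 0.10, 95% interval -1.42 to -0.91, edgeR adjusted p = 0.00233), which leaves 44.6% of the control mean. Without control 2 it was -1.16 (edgeR adjusted p = 9.66e-05), and Dusp5 was the one gene of the set called in each of the 14 alternatives tried (adjusted p from 1.75e-19 with DESeq2 to 0.0201). Of all genes tested, 7.96% had a lower log2 fold change. Exons of AC137853.2 on the opposite strand cover 22.1% of the Dusp5 exons. Reads of that stretch may come from either gene if the counting ignored strand, which the sources used here do not say. AC137853.2 is absent from the deposited counts, so its own level could not be seen.

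Dusp6, the most abundant member, differed little between the groups. Dusp6 (ENSMUSG00000019960; chromosome 10, 99263231 to 99267489, plus strand) had 197, 220 and 201 CPM in controls and 171, 171 and 194 CPM in knockouts. The knockouts were all below the controls, but knockout 3 lay within 3 CPM of control 1. Its log2 fold change of -0.21 (SE 0.08, 95% interval -0.41 to -0.00375, edgeR adjusted p = 0.123) did not pass the test, nor did it in any of the 14 alternatives (adjusted p 0.0628 to 0.358).

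Dusp4 pointed the other way from the other phosphatase genes. Dusp4 (ENSMUSG00000031530; chromosome 8, 34807297 to 34819894, plus strand) had 18.3, 29.2 and 26.6 CPM in controls and 44.6, 33.9 and 39.99 CPM in knockouts. Control 2 was the highest control and knockout 2 the lowest knockout, and these came within 5 CPM of each other. The log2 fold change of 0.68 (SE 0.20, 95% interval 0.18 to 1.17, edgeR adjusted p = 0.0588) missed the threshold, and without control 2 it was 0.78 and passed (edgeR adjusted p = 0.0106). Over the 14 alternatives the adjusted p ran from 0.0106 to 0.17, with 3 below 0.05.

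Each of the 3 Sprouty genes of the set had its highest levels in the knockout. Spry3, a Sprouty gene outside the set, was lower there and is given below. Spry2 (ENSMUSG00000022114; chromosome 14, 105891947 to 105896819, minus strand) had 21.0, 33.9 and 21.4 CPM in controls and 43.8, 46.6 and 43.6 CPM in knockouts. The knockouts lay close together, and control 2 stood between controls 1 and 3 and the knockouts. Spry2 rose by a log2 fold change of 0.81 (SE 0.20, 95% interval 0.31 to 1.31, edgeR adjusted p = 0.0362), and without control 2 the value was 1.04 (edgeR adjusted p = 3.79e-05). Spry4 (ENSMUSG00000024427; chromosome 18, 38586247 to 38601415, minus strand) had 25.6, 39.3 and 29.2 CPM in controls and 56.3, 50.1 and 56.6 CPM in knockouts. Control 2 was again the highest control and below every knockout. Spry4 rose by 0.79 (SE 0.17, 95% interval 0.37 to 1.21, edgeR adjusted p = 0.0239), or by 0.96 without control 2 (edgeR adjusted p = 1.69e-04). Leaving out control 1, control 3 or a knockout library cost both Spry2 and Spry4 their call, and the log2 fold changes were then 0.69 to 0.83 and 0.66 to 0.85. The adjusted p over all 14 alternatives reached 0.12 for Spry2 and 0.0867 for Spry4.

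Spry1, the member with the lowest level, depended most on control 2. Spry1 (ENSMUSG00000037211; chromosome 3, 37639947 to 37644598, plus strand) had 3.64, 13.4 and 5.48 CPM in controls, from 69, 246 and 100 counts, and 16.6, 20.8 and 17.04 CPM in knockouts, from 322, 373 and 306 counts. Control 2 had 2.94 times the mean of controls 1 and 3, the widest gap within the controls among the 9 genes, and lay nearer to the knockouts than to the other controls. With all libraries the log2 fold change was 1.27 (SE 0.48, 95% interval 0.08 to 2.47, edgeR adjusted p = 0.111) and did not pass. Without control 2 it was 1.96 (SE 0.20, edgeR adjusted p = 2.26e-04), a 3.89-fold difference, and adjusted p over the 14 alternatives ran up to 0.261. Opposite-strand exons of Gm42922 cover 24.4% of the Spry1 exons. At most 3 counts per library were assigned to Gm42922. How reads of the shared stretch were counted is not given, so this number cannot settle their origin.

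Among the Spred genes, Spred1 had the largest increase of any member by the fit over all libraries. Spred1 (ENSMUSG00000027351; chromosome 2, 117121374 to 117182279, plus strand) had 63.2, 125 and 74.2 CPM in controls and 231, 209 and 204 CPM in knockouts. The lowest knockout was well above control 2, which in turn was well above controls 1 and 3. Spred1 rose by 1.30 on the log2 scale (SE 0.26, 95% interval 0.65 to 1.94, edgeR adjusted p = 0.0197), and by 1.61, or 3.05-fold, without control 2 (edgeR adjusted p = 1.78e-05). Leaving out control 3 or a knockout library cost it the call, and the log2 fold change was then 1.19 to 1.34 with an adjusted p of 0.0643 to 0.0747, the latter the highest over all 14 alternatives.

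The log2 fold changes of Spred2 and Spred3 were closer to 0 and of opposite sign, and that of Spred3 alone passed the test with all libraries. Spred2 (ENSMUSG00000045671; chromosome 11, 19924375 to 20024026, plus strand) had 48.9, 64.5 and 52.6 CPM in controls and 73.3, 70.9 and 69.7 CPM in knockouts, so that control 2 again lay between the other controls and the knockouts. Its log2 fold change of 0.37 (SE 0.11, 95% interval 0.09 to 0.64, edgeR adjusted p = 0.0647) did not pass, whereas without control 2 the value of 0.46 did (edgeR adjusted p = 4.93e-04; up to 0.176 over the 14 alternatives). Spred3 (ENSMUSG00000037239; chromosome 7, 29158829 to 29170411, minus strand), whose protein is known to lack a working KIT-binding domain, had 96.9, 105 and 101 CPM in controls and 78.6, 68.6 and 81.8 CPM in knockouts. Its controls lay close together, with control 2 among them, and every knockout was lower. Spred3 fell by 0.41 on the log2 scale (SE 0.08, 95% interval -0.61 to -0.20, edgeR adjusted p = 0.0193), and the value was -0.41 without control 2 as well (edgeR adjusted p = 0.00508). Without control 1, control 3, knockout 1 or knockout 2 its log2 fold change was -0.44 to -0.33 and its adjusted p 0.0538 to 0.0709, the latter the highest over the 14 alternatives. Opposite-strand exons of Ggn, which had 53 to 72 counts per library, cover 3.25% of the Spred3 exons.

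**Figure D2:**
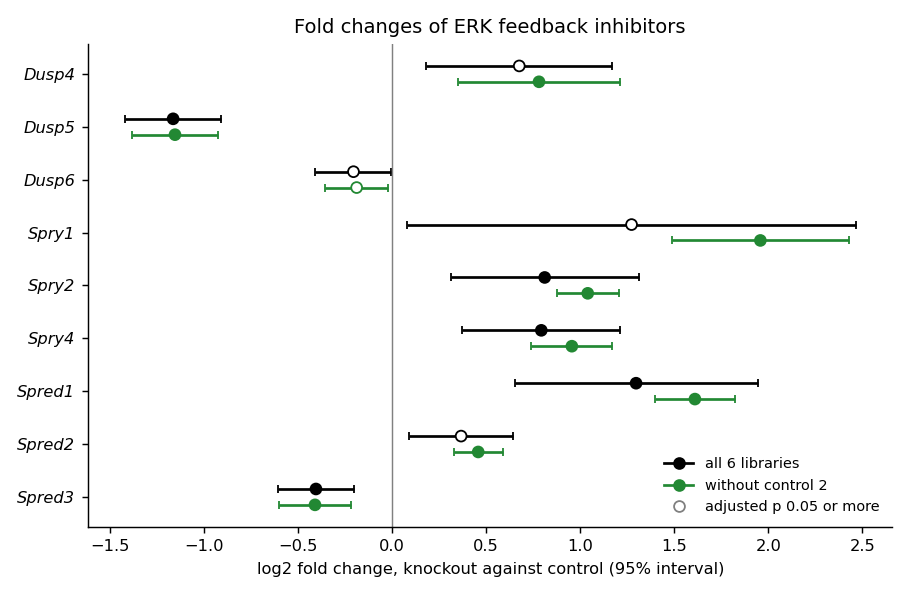
Log2 fold changes, knockout against control (horizontal axis), with 95% intervals for the 9 genes, from all 6 libraries (black) and without control 2 (green); open circles mark an adjusted p of 0.05 or more. Dusp5 and Spred3 kept nearly the same value in both fits, while Spry1 moved from 1.27 to 1.96 and Spred1 from 1.30 to 1.61.

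Control 2 was the highest control for each of the 9 genes, but by unequal amounts. It exceeded the mean of controls 1 and 3 by 2.94 times for Spry1, 1.81 times for Spred1, 1.6 times for Spry2, 1.44 times for Spry4, 1.30 times for Dusp4 and 1.27 times for Spred2. For Dusp6, Dusp5 and Spred3, the genes with lower knockout values, it was 1.11, 1.09 and 1.06 times. Fibroblast, pericyte and smooth muscle markers were also highest in control 2. The summed levels of both lists were higher in each knockout than in controls 1 and 3. So were the transcripts of Spry1, Spry2, Spry4, Spred1, Spred2 and Dusp4. Of the single markers, 5 of 10 and 6 of 10 were higher in each knockout than in both of those controls. The defining fibroblast collagen gene Col1a1 had 5489 CPM in control 2, 214 and 628 CPM in controls 1 and 3 and 104 to 235 CPM in knockouts, and Col1a2 had 4523, 99.3 and 239 and 15.9 to 287 CPM. Dcn, a matrix proteoglycan gene named after its values were seen, went the other way, with 317 CPM in control 2, 3.95 and 6.96 CPM in controls 1 and 3 and 1421, 2110 and 1343 CPM in knockouts 1, 2 and 3 (not called, edgeR adjusted p = 0.156). Left without control 2, the fit called Dcn higher, with a log2 fold change of 8.19 (edgeR adjusted p = 7.79e-06). Without Dcn the fibroblast sum was 405, 12100 and 1090 CPM in controls 1, 2 and 3 and 524, 756 and 302 CPM in knockouts, so that it was no longer higher in each knockout than in controls 1 and 3. Acta2 and Pdgfrb, the most abundant pericyte and smooth muscle markers, had 522 to 1131 and 163 to 189 CPM in knockouts against 379 and 462, and 20.2 and 40.5 CPM, in controls 1 and 3. The part of these other cell types in the levels of the inhibitors was not tested.

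Levels of Xist and of genes on the Y chromosome showed that the cells differed in sex: controls 1 and 3 and knockout 1 were male, and control 2 and knockouts 2 and 3 female. Within each sex the direction was that of all libraries for all 9 genes. The log2 ratio of the means was -0.95 among male and -1.34 among female libraries for Dusp5, 1.75 and 0.73 for Spred1, 1.05 and 0.41 for Spry2, 1.04 and 0.44 for Spry4, 1.86 and 0.50 for Spry1, and -0.34 and -0.48 for Spred3. The female values rest on control 2 alone and the male ones on knockout 1 alone, so sex and the features of these libraries cannot be told apart, and no test was made within a sex.

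The promoters of the changed genes are shown because the deleted factors belong to the ETS family, which binds the core GGAA. RefSeq promoter windows (GRCm38.p6, 250 bases before to 50 after the gene start) were found for 7 of the 9 genes, the others being Dusp4 and Spry4. The stretches below lie before the RefSeq start, hold no annotated exon of a protein-coding gene and are given on the strand of the gene. That of Spred3 directly precedes the first exon of one annotated transcript and falls in an intron of another that starts further upstream. In each, capitals mark GGAA or its reverse complement and, in Dusp5, a pair of CArG boxes, the element bound by serum response factor.
Dusp5, chr19:53528895-53529108, plus strand: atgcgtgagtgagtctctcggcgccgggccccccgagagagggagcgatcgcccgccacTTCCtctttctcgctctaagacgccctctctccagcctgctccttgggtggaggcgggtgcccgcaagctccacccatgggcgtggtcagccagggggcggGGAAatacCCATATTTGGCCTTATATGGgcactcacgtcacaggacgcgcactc
Spry2, chr14:105896820-105897069, minus strand: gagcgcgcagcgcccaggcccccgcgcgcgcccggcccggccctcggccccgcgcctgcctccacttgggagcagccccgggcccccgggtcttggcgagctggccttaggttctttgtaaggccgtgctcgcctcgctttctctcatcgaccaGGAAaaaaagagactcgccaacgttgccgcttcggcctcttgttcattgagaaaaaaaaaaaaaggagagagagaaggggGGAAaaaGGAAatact
Spred1, chr2:117120821-117121070, plus strand: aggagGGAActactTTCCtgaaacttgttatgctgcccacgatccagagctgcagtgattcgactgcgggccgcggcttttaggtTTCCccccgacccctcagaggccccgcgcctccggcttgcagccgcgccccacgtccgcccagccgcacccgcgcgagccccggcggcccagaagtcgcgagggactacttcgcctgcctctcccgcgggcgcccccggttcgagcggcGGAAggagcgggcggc
Spred3, chr7:29168648-29168897, minus strand: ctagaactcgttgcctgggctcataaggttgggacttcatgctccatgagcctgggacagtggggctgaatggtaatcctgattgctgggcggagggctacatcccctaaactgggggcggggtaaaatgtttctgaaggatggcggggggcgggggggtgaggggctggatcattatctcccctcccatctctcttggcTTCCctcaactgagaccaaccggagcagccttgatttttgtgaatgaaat

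In the whole windows, on both strands, GGAA occurred 3 times in Dusp5, 6 times in Dusp6, 5 times in Spred1, 7 times in Spred2, 5 times in Spry2 and 1 time each in Spry1 and Spred3. Such matches are common: 96.0% of the 32851 promoter windows in the table held at least 1, with a median of 3. The longer form GGAAGT, which contains the core, was found on the strand opposite to the gene in Dusp5, with its first base at position -188 from the gene start, and in Spred2 at -28, and on either strand in 23.8% of all windows. The AP-1 element TGANTCA was found in none of the 7 windows and in 7.81% of all windows. The CArG boxes of Dusp5 start at positions -82 and -72 and thus lie end to end; no other member window held one, and 1.63% of all windows did. The CArG box was searched for after the sequence had been seen. A match of letters is a description and does not show binding.

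Set against transcript length, Dusp6 dominated the set in both genotypes. Per kilobase of annotated exon, Dusp6 stood at 65.7 ± 3.99 CPM in controls (SD, n = 3) and 56.98 ± 4.23 CPM in knockouts. In controls the order below it was Dusp5 at 26.7 ± 1.38, Spred3 at 16.3 ± 0.652, Spred1 at 12.9 ± 4.82, Spry2 at 12.2 ± 3.52, Spred2 at 11.97 ± 1.76, Dusp4 at 9.02 ± 2.07, Spry4 at 6.595 ± 1.496 and Spry1 at 2.58 ± 1.78 CPM per kilobase. The levels of Spred1, Spry2 and Spred2 lay within their spread of each other, and Spred3 lay within the spread of Spred1. Dusp4 also lay within the spread of Spred1 and of Spry2, and the spreads of Dusp4 and Spry4 overlapped. In knockouts Spred1 stood next to Dusp6 at 31.6 ± 2.09, followed by Spry2 at 21.4 ± 0.81, while Dusp5 ranked 7 at 11.9 ± 1.40 CPM per kilobase, within the spread of Spry4 at 11.4 ± 0.771 and Spred3 at 12.3 ± 1.11. With the longest transcript as the length, Spred2 and Spry2 changed places in controls. Spred3, whose longest transcript is much shorter than its joined exons, then stood at 24.9 CPM per kilobase in controls, outside the spread of Spred1, and at 18.8 in knockouts, where it ranked 4 and no longer lay near Dusp5.

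**Figure D3:**
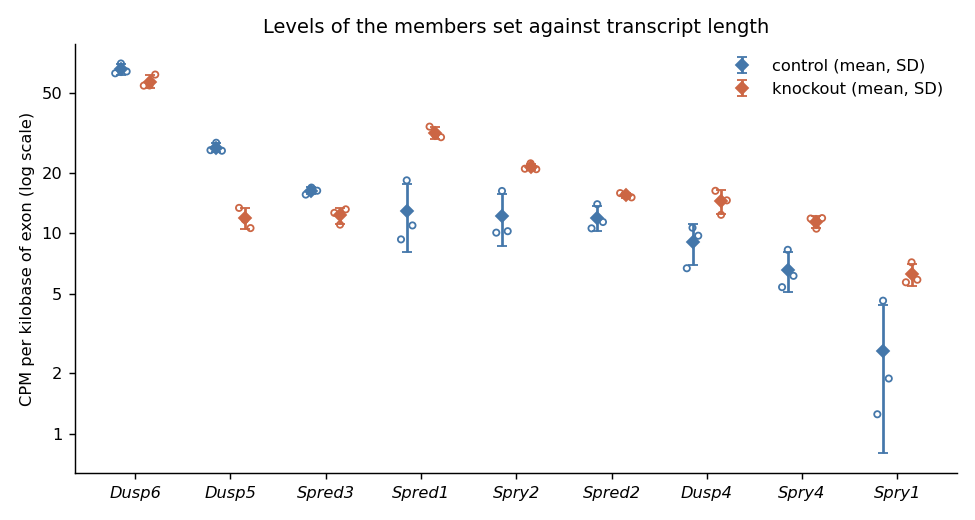
CPM per kilobase of exon (vertical log axis) of the 9 genes, ordered by their control mean, in controls (blue) and knockouts (orange); diamonds and bars give mean and SD of 3 libraries, circles the libraries. Dusp6 leads in both groups at 65.7 and 56.98, Dusp5 drops from 26.7 to 11.9 and Spred1 climbs from 12.9 to 31.6.

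Added up over the 9 genes, the levels of the groups overlapped. The summed level per kilobase was 148, 188 and 157 CPM in controls 1, 2 and 3 and 185, 176 and 184 CPM in knockouts, and control 2 exceeded every knockout. The phosphatase genes together had 101 ± 7.04 CPM per kilobase in controls and 83.3 ± 4.27 in knockouts, without overlap. The Sprouty genes had 21.4 ± 6.77 and 39.1 ± 0.837, and the Spred genes 41.1 ± 7.19 and 59.4 ± 2.81 CPM per kilobase, each also without overlap. Dusp6 made up 37.5% to 42.5% of the sum in controls and 29.4% to 33.6% in knockouts. These sums were not tested.

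For each member the 2 genes whose log2 CPM followed it most closely over the 6 libraries were sought among 9094 named genes whose mean reached 10 CPM. They were Atp6v0a1 and Phtf1 for Dusp5 (Pearson r = 0.9991 and 0.9988), Bach1 and Irs2 for Spred1 (0.9994 and 0.9989), Lcn2 and Zc3h12a for Spry2 (0.9998 and 0.9987), Rin1 and Trim8 for Spry4 (0.9985 and 0.9973), Ndufa7 and Hspa13 for Spry1 (0.9979 and 0.9972), Pdpk1 and Gpc6 for Spred2 (0.9992 and 0.9989), Slc35e4 and Midn for Spred3 (0.9953 and 0.9946), Mex3d and Usp34 for Dusp4 (0.9958 and 0.9845) and Nlgn2 and Setd5 for Dusp6 (0.9907 and 0.9849). The 6 points share their group and library, and from 22 genes (Dusp6) to 712 genes (Spry2) reached an r above 0.95, so that these names are a description.

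The inhibitors were next set beside the rest of the pathway, listed by role. Of 88 other pathway genes tested, 18 rose and 20 fell, where 13.1% and 11.7% of all genes did, with a median log2 fold change of -0.04. Scaled by library size only, 22 were higher and 18 lower, and without control 2 the counts were 33 and 33, where 25.5% and 24.8% of all genes were called. At the top of the pathway, receptor genes fell more than they rose, with 8 lower and 2 higher of 17 tested and a median of -0.69 (9 lower and 5 higher without control 2). The stem cell factor receptor gene Kit fell from 258 ± 83.8 to 43.8 ± 11.4 CPM (log2 fold change -2.56), and the angiopoietin receptor gene Tek and its relative Tie1 had log2 fold changes of -2.13 and -2.25. The PDGF receptor gene Pdgfra rose from 5.23 ± 0.912 to 15.5 ± 1.52 CPM (1.57), and Igf1r, the receptor gene for insulin-like growth factor, from 183 ± 5.51 to 383 ± 30.8 CPM (1.07). The VEGF receptor genes Kdr, Flt1 and Flt4 (-1.44, -1.165 and -1.71) and the FGF receptor gene Fgfr1 (-1.17) also fell. Fgfr2 and Fgfr3 did not pass, but Fgfr2 was called higher without control 2 (4.345). These VEGF and FGF receptor genes were named after their values were seen. Pdgfra also belongs to the fibroblast markers, and Tek, Tie1 and Kdr to the endothelial ones.

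Of 14 adaptor and exchange factor genes tested, 4 fell and 1 rose, with a median of -0.05 (7 lower and 3 higher without control 2). For this and the following lists, the shares of all genes called were 13.1% higher and 11.7% lower. Without control 2 these shares were 25.5% and 24.8%. Gab1, a docking protein gene, Rapgef1 and the phospholipase gene Plcg1 fell, with log2 fold changes of -1.04, -0.99 and -0.89, and the adaptor gene Shc1 rose by 1.07. In the RAS to ERK core, 6 of 18 genes rose and 3 fell (median 0.09; 8 higher and 6 lower without control 2): the MEK-activating kinase gene Map3k8 rose from 5.43 ± 4.05 to 29.6 ± 3.90 CPM (log2 fold change 2.45, and 3.21 without control 2), Braf by 0.94 and the scaffold gene Ksr1 by 0.72, while Nras, Mapk3 (which encodes ERK1) and Araf fell by 0.54, 0.50 and 0.27 on the log2 scale. Of 21 genes listed as other inhibitors 3 rose and 1 fell (median 0.13), and without control 2 the counts were 9 higher and 3 lower (median 0.02). Those that rose were the phosphatase genes Dusp16 (0.99) and Dusp9 (0.71) and Nf1 (0.52), which encodes the neurofibromin that Spred proteins recruit. The Dusp16 protein is known to act mainly on MAP kinases other than ERK. The one that fell was Spry3, a further Sprouty gene named after its values were seen, from 7.43 ± 3.43 to 2.18 ± 0.239 CPM (-1.77).

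Transcripts that ERK is known to induce moved in both directions, as the feedback inhibitors did. Of 18 tested, 6 rose and 4 fell, with a median of -0.19, and without control 2 the counts were 8 and 8. Fos, an AP-1 subunit gene, rose from 20.6 ± 17.1 to 167 ± 15.8 CPM (log2 fold change 3.01, and 3.92 without control 2), Phlda1 from 9.86 ± 8.14 to 42.2 ± 4.12 CPM (2.10, and 2.99 without control 2) and Ier3 from 191 ± 16.6 to 518 ± 30.2 CPM (1.44). The ETS factor gene Etv4 fell from 78.0 ± 10.4 to 26.7 ± 4.39 CPM (-1.55), and Cdc42ep3 and the EGF-family ligand gene Hbegf fell by 1.09 and 0.97 on the log2 scale. Of the 24 pathway genes named by rule, 12 stayed called in each of the 14 alternatives (Pdgfra, Igf1r, Kit, Tie1, Tek, Shc1, Rapgef1, Braf, Mapk3, Dusp16, Ier3 and Etv4), and all 24 were called without control 2. Gab1, Plcg1, Araf, Dusp9, Nf1, Phlda1 and Cdc42ep3 lost the call on leaving out any of the other 5 libraries, Map3k8, Fos and Ksr1 on leaving out control 3 or a knockout, Nras on leaving out control 3, knockout 1 or knockout 2, and Hbegf on leaving out control 1, control 3 or knockout 1. Dusp9, Nf1, Araf, Cdc42ep3 and Ksr1 also lost it with other settings. For Dusp9 and Nf1 these were RLE scaling, no filter on low counts, the replicate block and the term for sex, which left a call in 5 of 14 alternatives. Araf lost it with library size only, no filter and the block, and Ksr1 with the block and the term for sex. Cdc42ep3 was called in 4 of 14.

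**Figure D4:**
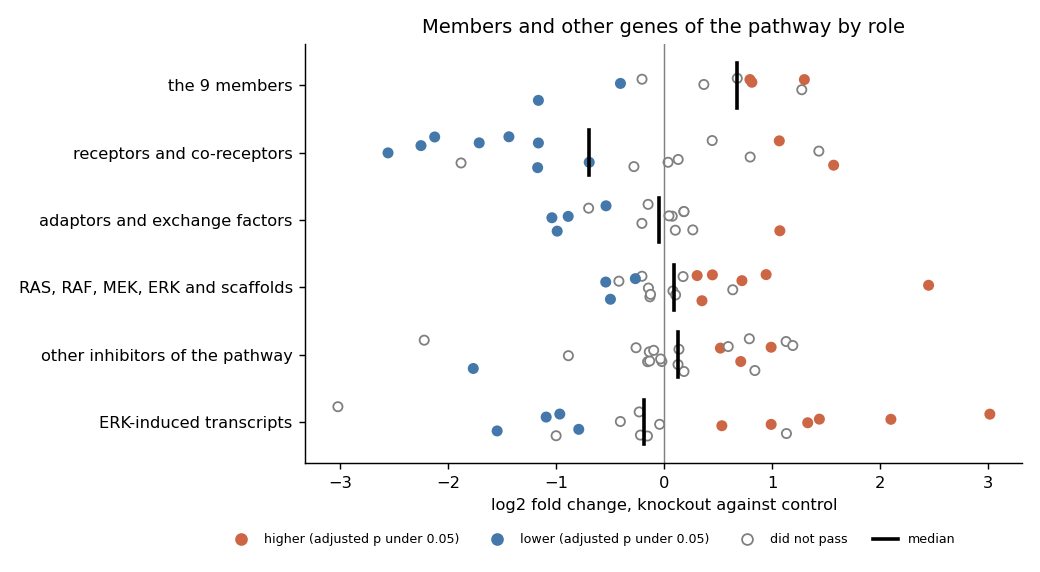
Log2 fold change, knockout against control (horizontal axis), of the 9 members and of 88 other pathway genes by role; orange and blue points passed as higher or lower, open points did not pass, and black bars give medians. The median of the members is 0.68 and that of the receptors -0.69, and each row holds genes on both sides of 0.

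Markers of further cell types were mostly low. Leukocyte and microglia markers summed to 2.84 to 4.17 CPM in controls and 2.06 to 2.95 CPM in knockouts, with Tyrobp at 0 in every library and Cd68 and Csf1r the most abundant, and 0 of 8 were called (edgeR). Astrocyte markers summed to 112 to 302 and 55.3 to 74.4 CPM, mostly from Gja1 with Aldh1l1 next, and 1 of 6 fell (Gja1). Without control 2, Gja1 and Aldh1l1 were called lower, and Slc1a3, with 0 and 1 counts in controls 1 and 3, higher. Neuron and oligodendrocyte markers summed to 16.8, 68.6 and 23.3 CPM in controls 1, 2 and 3 and to 56.3 to 82.0 CPM in knockouts. Control 2 thus lay within the range of the knockouts, whereas for Spry1, Spry2 and Spry4 it lay below every knockout. Tubb3 carried most of the neuron and oligodendrocyte sum and was not called with all libraries (edgeR adjusted p = 0.28). Without control 2 it was called higher (log2 fold change 1.845, edgeR adjusted p = 4.68e-04). The 1 of 8 that rose was Mbp, a myelin gene, from 0.198 ± 0.029 to 2.41 ± 1.4 CPM. Epithelial and choroid plexus markers summed to 1.2 to 3.74 and 7.53 to 10.3 CPM, led by Krt18 and Krt8, with Ttr at 0 throughout, and 1 of 6 rose (Krt18). With all libraries, 1 of 10 fibroblast markers rose (Pdgfra), and 1 of 10 pericyte and smooth muscle markers fell (Abcc9). Without control 2, Dcn, Lum, Pdgfra and Fbln1 of the fibroblast list were called higher and Col1a1 lower (log2 fold change -1.52). Lum had only 1 and 2 counts in controls 1 and 3. Of the pericyte and smooth muscle list, Pdgfrb (2.50), Kcnj8 and Cnn1 were then called higher and Abcc9 lower. The other markers of both lists were not called or not tested. Mbp, Abcc9, Slc1a3, Lum, Fbln1, Kcnj8 and Cnn1 were named after their values were seen. The part of these cell types in the levels of the inhibitors was not tested.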

How the data were processed

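Libraries of polyadenylated RNA were made with TruSeq RNA v2 or Stranded mRNA kits, per the labels' protocols. The authors deposited raw counts per Ensembl gene, used as they are. FastQC 0.11.5, STAR 2.7.6a and the build GRCm38 come from the submitters' processing notes; how genes were counted is not given in the sources used here. Of 52636 identifiers 52489 matched GENCODE M21 (GRCm38); the rest held at most 0.00608% of a library's counts.

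Groups and replicate numbers come from sample titles. R 4.3.3 and edgeR 4.0.16 were used (filterByExpr, TMM, glmQLFit, glmQLFTest, two-sided, no covariate), with Benjamini-Hochberg adjustment over 13901 genes. The test was checked on simulated counts that held no outlying library such as control 2, so the check does not cover that feature. The SE is the log2 fold change divided by the square root of F. Every pair of libraries differed by more than sampling noise. The members and lists were chosen with earlier results of these data known. Named genes were the 9 members, Erg, Fli1, up to 3 called genes per direction and pathway list (mean of 5 CPM or more, largest change), the 2 genes most alike to each member and the 2 most abundant markers of each cell type. Alternatives were DESeq2 1.42.0, limma voom (3.58.1), RLE scaling, scaling by library size only, no filter on counts, a floor of 1 CPM in 3 libraries, a replicate block, a term for sex, leaving out each library and, for counts of calls, an adjusted p under 0.01. Protein sequences were not used here.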

Additional observations from a re-analysis of the deposited data

How the results depend on the processing

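No member changed its direction under any alternative. Of 126 pairs of member and alternative, 97 kept their side of the threshold, 9 gained a call and 20 lost one. The count of 5 members called was 8 with DESeq2 and 1 at an adjusted p under 0.01, and it ranged from 1 to 8 with 1 library left out (1 without control 3, knockout 1 or knockout 2, and 2 without control 1 or knockout 3). Of all genes, 3437 were called, and 1256 at an adjusted p under 0.01. DESeq2 also called more of all genes, 4375 of 13767 tested. With 1 library left out, 1351 to 7128 genes were called. Of other pathway genes, 38 were called and 17 at an adjusted p under 0.01, with 18 to 66 with 1 library left out. Scaling by library size only moved the share of higher calls over all genes from 52.8% to 66.4%; 5 members were then higher and 2 lower, where 18.0% and 9.12% of all genes were. With the longest transcript as length, Spry2 ranked 6 and Spred2 ranked 5 in controls. Depth did not keep any member from being tested; Spry1 had the fewest counts, from 69 in control 1.

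Libraries of both groups share replicate numbers, and whether these numbers pair them stayed undecided. The deviations of same-numbered libraries from their group means correlated at -0.185, 0.220 and 0.346. Controls 1, 2 and 3 correlated best with knockouts 3, 2 and 3, so controls 2 and 3 matched their own number and control 1 did not. Such deviations come from means of 3 libraries, and control 2 stood apart, so they cannot decide the pairing. With the replicate number as a block, 3 members (2 higher, 1 lower) and 1844 of all genes were called, and Spry4 (0.81) and Spred3 (-0.41) no longer passed.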
